A study of Mus musculus with 16 samples.

Results

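Fkbp5, Errfi1, Cdkn1a and Mt2 are genes whose transcripts are known to respond to glucocorticoid hormone. On a two-colour array of 20205 probes each is represented by 1 probe, and all 4 were among the 15715 probes measured often enough to be tested. They are 4 of 9669 named genes on the array, of which 8005 were tested. No probe listed with several genes names any of them. They were selected on the results of an earlier test of the same 16 arrays, which asked whether any of 5 kidneys differ. The values they were chosen by were the adjusted p of that limma F test, at 0.000237 for Errfi1, 0.0015 for Cdkn1a, 0.00188 for Fkbp5 and 0.0188 for Mt2. Around the threshold of 0.05, the named gene just inside was Rara at 0.0494 and the one just outside was Usp53 at 0.0504. That test called 336 of 8005 named genes (4.2%), and 629 of all 15715 probes (4%). Since the members were taken from its calls, their values are given below as a description without a test.

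The arrays compared right kidneys of wild-type male mice W1, W2, W3 and W4 with the right kidney of their littermate W5. The mice had mixed C57BL/6 and 129Sv parentage, were aged 88 ± 2 days and had been killed by cervical dislocation between 8 and 10 in the morning. None had been treated, and every group is 1 animal hybridised 4 times, with the mouse in channel 1 on 2 arrays and in channel 2 on the other 2. W5 served on all 16 arrays, so each value below carries its kidney as well. Arrays are named by mouse and number, so that W3.2 is array 2 of W3.

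A value is the deposited log2 ratio of the 2 channels, with the sign turned on arrays that held W5 in channel 1. W5 therefore lies at 0. Which channel is the numerator is not given in the sources used here, so a value below 0 shows the side of W5 on which a kidney lies and not whether it held less or more transcript. Values below 0 are said to lie on the negative side and values above 0 on the positive side. A fitted value is the mouse coefficient of the limma model with its standard error (SE), over 4 arrays unless stated. The 4 arrays of a mouse repeat the hybridisation of the same kidney RNA, so their spread and the p-values below concern these extracts and not mice at large. Arrays held values for 16209 to 18406 probes (80.2% to 91.1%), and the number of arrays limits the precision. A ratio gives no level of one gene against another and cannot check the tissue against its markers, since both channels held kidney. In whole kidney, fewer cells of a type and less RNA per cell cannot be told apart.

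Corticosterone, the main glucocorticoid of mice, enters cells and binds the glucocorticoid receptor, which is held ready by Hsp90 and its co-chaperones. The bound receptor moves to the nucleus and activates or represses genes near its binding sites. In the kidney the hormone acts on the tubules, and the enzymes encoded by Hsd11b1 and Hsd11b2 regenerate and inactivate it inside cells. Its level in blood follows the time of day and stress. Fkbp5 encodes FKBP51, an Hsp90 co-chaperone that lowers hormone binding by the receptor and is itself induced by it. Errfi1 encodes Mig6, a feedback inhibitor of the EGF receptor. Cdkn1a encodes p21, an inhibitor of cyclin-dependent kinases that is also a classic target of p53. Mt2 encodes a metallothionein, a small protein that binds zinc and copper and is also induced by metals through MTF1.

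The 250 bases before an annotated start are shown for each member, from RefSeq, to show which motifs of known regulators lie before that start. No link between these motifs and the values below was tested. All 4 genes had a window in the table, Errfi1 and Cdkn1a with 2 each, and for these the window with the rarer motifs is printed. Capitals mark matches on either strand to the GC box (GGGCGG), the TATA box (TATAAA), the cyclic AMP response element (TGACGTCA), the AP-1 site (TGACTCA), the metal response element core (TGCACNC or TGCGCNC) and the p53 decamer.
Fkbp5 (GRCm38.p6, chr17:28486150-28486399, minus strand): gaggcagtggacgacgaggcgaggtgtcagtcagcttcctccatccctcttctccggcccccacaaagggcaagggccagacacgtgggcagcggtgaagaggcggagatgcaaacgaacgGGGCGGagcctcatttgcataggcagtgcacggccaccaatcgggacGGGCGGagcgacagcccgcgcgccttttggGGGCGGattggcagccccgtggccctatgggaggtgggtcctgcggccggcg
Cdkn1a (GRCm38.p6, chr17:29090729-29090978, plus strand): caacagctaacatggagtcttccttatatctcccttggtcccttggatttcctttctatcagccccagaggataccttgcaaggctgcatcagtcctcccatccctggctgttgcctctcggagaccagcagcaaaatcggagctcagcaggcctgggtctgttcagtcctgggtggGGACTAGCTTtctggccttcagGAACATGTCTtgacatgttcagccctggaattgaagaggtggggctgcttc
Errfi1 (GRCm38.p6, chr4:150854820-150855069, plus strand): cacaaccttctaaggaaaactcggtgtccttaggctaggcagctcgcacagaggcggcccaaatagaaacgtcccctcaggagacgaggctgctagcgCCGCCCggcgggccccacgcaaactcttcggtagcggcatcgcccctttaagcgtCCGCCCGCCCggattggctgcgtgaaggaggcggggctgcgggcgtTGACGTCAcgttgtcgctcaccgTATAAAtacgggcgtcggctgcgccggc
Mt2 (GRCm38.p6, chr8:94172368-94172617, plus strand): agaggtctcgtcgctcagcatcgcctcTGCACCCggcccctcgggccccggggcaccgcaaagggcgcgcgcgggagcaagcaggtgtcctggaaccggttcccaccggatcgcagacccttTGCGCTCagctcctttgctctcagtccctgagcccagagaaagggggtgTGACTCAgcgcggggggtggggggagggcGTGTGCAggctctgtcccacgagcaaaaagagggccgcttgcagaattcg

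The full glucocorticoid response element and its half-site (TGTTCT) had no match in any of the 6 member windows, and were found in 0.00913% and 16.1% of the 32851 windows of the table. No match says only that these letters are not in these 250 bases. The Mt2 window held 3 metal response cores, a motif in 21.4% of all windows, and 1 AP-1 site, in 4.46%. The Errfi1 window held 1 cyclic AMP response element, found in 1.55% of windows, 1 TATA box, in 12.4%, and 3 GC boxes, a pair of which overlap. The Cdkn1a window held 2 p53 decamers, a motif in 7.13% of windows, and that of Fkbp5 held 3 GC boxes, found in 32.7%. The other Errfi1 window matched none of these motifs. The other Cdkn1a window (chr17:29093519-29093768), downstream of the one printed, held 2 GC boxes and no p53 decamer. These matches are descriptions of sequence and were not measured as binding sites.

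Fkbp5, the co-chaperone gene, separated W3 from the other mice. Its log2 ratios were 0.12, 0.28, 0.32 and 0.10 on arrays 1 to 4 of W3. They were -0.48, -0.30, -0.35 and -0.13 in W1 and -0.45, -0.25, -0.54 and -0.30 in W2. All 4 arrays of W3 thus lay on the positive side, and all 8 arrays of W1 and W2 on the negative side. W4 lay between, with -0.22, -0.14, -0.13 and 0.0056. Fitted values of W1 to W4 were -0.31, -0.39, 0.21 and -0.12, each with an SE of 0.07. From the negative to the positive end the order of the kidneys was W2, W1, W4, W5 and W3. W2 and W1 were 0.07 apart with an SE of 0.10, and their arrays overlapped. W3 was 0.59 ± 0.10 from W2, a 1.51-fold difference, and 0.52 ± 0.10 from W1, and in neither case did the arrays overlap. Its arrays did not overlap those of W4 either, at a gap of 0.33, and the arrays of W4 did not overlap those of W2. Without mouse W3 the range over the kidneys was 0.39, against 0.59 with it. The technical SD of the probe was 0.104, against a median of 0.195 over all tested probes.

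Cdkn1a, the p21 gene, had the same order at the W3 end. Its ratios in W3 were 0.05, 0.09, -0.07 and 0.09, around the level of W5. W1 had -0.74, -0.70 and -0.26 on the 3 arrays with a value, array W1.2 having none. W2 had -0.66, -0.29, -0.55 and -0.32, and W4 had -0.52, -0.24, -0.012 and -0.28. All 11 values of W1, W2 and W4 lay on the negative side, while 3 of the 4 of W3 lay on the positive side. Fitted values of W1 to W4 were -0.53 ± 0.10 (over 3 arrays), -0.45 ± 0.09, 0.04 ± 0.09 and -0.26 ± 0.09. W3 was 0.57 ± 0.13 from W1, a 1.49-fold difference, and 0.49 ± 0.12 from W2, with no overlap of arrays. It was 0.30 ± 0.12 from W4, where the arrays did overlap. W1 and W2 were 0.08 apart with an SE of 0.13, and W3 and W5 0.04 apart with an SE of 0.09, so neither pair differed beyond its error. Without array W3.1 the fitted value of W3 was 0.0017.

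Errfi1, the EGF receptor inhibitor gene, ran the other way in W3. Its arrays read -0.74, -0.47, -0.80 and -0.31 in W3, the mouse farthest from W5. W2 had -0.36, -0.42, -0.73 and -0.22, W4 had -0.60, -0.32, -0.60 and 0.062, and W1 had -0.11, -0.14, -0.24 and -0.19. Of the 16 arrays, 15 lay on the negative side, the exception being W4.4. Fitted values of W1 to W4 were -0.17, -0.43, -0.58 and -0.36, each with an SE of 0.09. W3 and W1 were 0.41 ± 0.12 apart and their arrays did not overlap, while every other pair of W1 to W4 overlapped. Neighbours in the order W3, W2, W4, W1 were 0.15, 0.07 and 0.19 apart with an SE of 0.12, within about 1.54 SE of each other. The dye term was the largest of the members, at -0.13 ± 0.04. The arrays with the mouse in channel 1 lay farther on the negative side in W3 and W4, as with -0.60 on both such arrays of W4 against -0.32 and 0.062 with the mouse in channel 2.

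Mt2, the metallothionein gene, had fitted values on the negative side in all 4 mice, and these were not separated from each other. The gap between W5 and the nearest mouse, W1, was 0.25 with an SE of 0.12, and the arrays of W1 lay on both sides of 0. Its ratios were -0.25, 0.064, -0.51 and -0.29 in W1 and -0.12, -0.81, -0.036 and -0.68 in W2. They were -0.52, -0.26, -0.56 and -0.049 in W3 and -0.33, -0.39, -0.65 and -0.39 in W4. Again 15 of 16 arrays lay on the negative side, the exception being W1.2. Errfi1 and Mt2 were thus the members with all 4 fitted values on the negative side, a pattern of 10.4% of named genes and of 0.962% with a call, which had chosen them and from which nothing is read. Fitted values of W1 to W4 were -0.25, -0.41, -0.35 and -0.44, each with an SE of 0.12. The range among W1 to W4 was 0.19, with an SE of 0.18 on any pair, and the arrays of every pair overlapped. Without array W1.3 the fitted value of W1 was -0.16, and without array W2.2 that of W2 was -0.27. Mt2 had the noisiest member probe, with a technical SD of 0.279. In W2 the orientations split, with -0.12 and -0.036 when the mouse was in channel 1 and -0.81 and -0.68 when it was in channel 2. In W3 they split the other way, with -0.52 and -0.56 in channel 1 and -0.26 and -0.049 in channel 2. The dye term, which is common to all mice, was -0.01 ± 0.06 and removed neither split.

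**Figure D1:**
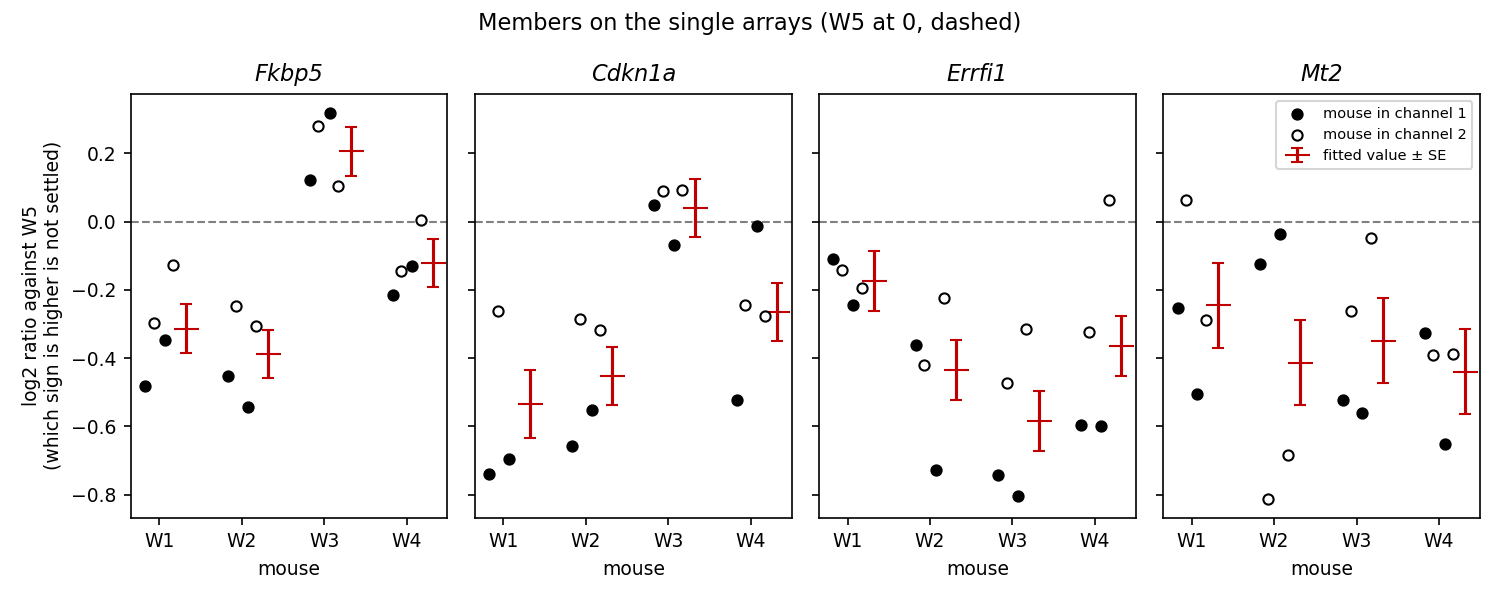
Log2 ratios against W5 (vertical axis) of Fkbp5, Cdkn1a, Errfi1 and Mt2 on each array of W1 to W4 (horizontal axis), with filled points for arrays holding the mouse in channel 1, open points for channel 2 and red bars for the fitted value ± SE. In Fkbp5 all 4 points of W3 lie above 0 and all points of W1 and W2 below it, and in Errfi1 and Mt2 15 of 16 points each lie below 0.

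Fkbp5 and Cdkn1a thus had W3 at the positive end, and Errfi1 and Mt2 had all 4 mice on the negative side. Whether Errfi1 and Mt2 shared an order of the mice cannot be told. Errfi1 separated only W3 from W1, and Mt2 separated no pair of W1 to W4. In both genes W1 had the fitted value nearest W5. The likeness of a pair was measured as the cosine of their ratios after removal of the dye term, over the arrays with both values. All arrays share W5, which alone moves the genes together, and no test was made. The cosine was 0.859 for Fkbp5 and Cdkn1a over 15 arrays and 0.788 for Errfi1 and Mt2 over 16 arrays. Across these pairs it was 0.269 for Fkbp5 and Errfi1, 0.336 for Fkbp5 and Mt2, 0.454 for Errfi1 and Cdkn1a and 0.586 for Cdkn1a and Mt2. As the mean over the 4 mice, Errfi1 lay at -0.39 ± 0.17, Mt2 at -0.36 ± 0.09, Cdkn1a at -0.30 ± 0.26 and Fkbp5 at -0.15 ± 0.26 (SD, n = 4 mice). The SD of the 4 fitted values was thus smallest in Mt2 and exceeded the size of the mean in Fkbp5. In Mt2 this SD was below the SE of each fitted value, 0.12, so it cannot be told apart from array noise.

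Among the other 335 named genes called over the 5 kidneys, those most like each member were taken by the same cosine. For Fkbp5 these were Cdkn1a at 0.859, then S100a8, a calcium-binding protein of neutrophils, at 0.832 over 16 arrays, and the aldehyde dehydrogenase gene Aldh1a7 at 0.813. S100a8 had -0.24, -0.46, 0.19 and -0.16 in W1 to W4, the same order as Fkbp5. Its call was lost without array W2.1 or W2.3 and without mouse W1, W2 or W3, with an adjusted p of up to 0.263. For Cdkn1a they were Fkbp5, the small heat shock protein gene Hspb1 at 0.859 and P4ha1, a collagen prolyl hydroxylase subunit, at 0.822. For Errfi1 they were the adipocyte lipid carrier Fabp4 at 0.932, Serpina10 at 0.926 and Mep1b, a subunit of the brush border protease meprin, at 0.903. For Mt2 they were Dnajb1, an Hsp40, at 0.939, Npnt, a matrix protein, at 0.902 and the stress-inducible Hsp70 gene Hspa1a at 0.900. The median cosine over these 335 genes was between -0.321 for Mt2 and -0.143 for Fkbp5.

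The genes most opposite were also taken by this rule. Inmt, a methyltransferase, lay opposite Fkbp5 at -0.901 and Cdkn1a at -0.911, with 0.40, 0.36, 0.0032 and 0.10 in W1 to W4. The RNA helicase gene Ddx5 at -0.892 and the splicing gene Crnkl1 at -0.854 followed for Fkbp5. Gpam, which starts glycerolipid synthesis, lay at -0.948 and the collagen gene Col3a1 at -0.915 from Cdkn1a. Errfi1 lay opposite Serpina1b at -0.946, Serpina1e at -0.927 and Ccn1, a matricellular protein, at -0.918. Serpina1 genes are near-identical in sequence, so their probes may share signal. The calls of Col3a1 and Dcn were lost in 15 and 8 of 27 settings, with an adjusted p of up to 0.237 and 0.180. Mt2 lay opposite Plagl2 at -0.918, decorin (Dcn) at -0.874 and Vstm4 at -0.866. With 335 candidates and 16 arrays that share W5, high values of either sign arise readily, and nothing on shared control follows from them.

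Beyond the members, 52 further glucocorticoid target genes had been listed, of which 29 were tested. The list was made with earlier results of these data known. In the 5-kidney test 5 of the 29 passed (17.2%), against 4.2% of all named genes. At an unadjusted limma p under 0.05 there were 17 of the 29, against 18.2% of all named genes. The mean of the 4 mice lay on the negative side in all 5 that passed, where 1.97% of named genes passed on that side and 2.22% on the other. Mknk2, a kinase that phosphorylates the cap-binding factor eIF4E, had -0.50, -0.35, -0.33 and -0.43 in W1 to W4 (limma adjusted p = 0.000107). Fam107a, an actin-binding stress response gene, had -0.24, -0.22, -0.37 and -0.61 (adjusted p = 0.00217, W2 over 3 arrays). Both kept their calls in all alternative settings in which they were tested. Plin4, a lipid droplet coat protein, had -0.02, -0.46, -0.18 and -0.29 (adjusted p = 0.00659), and 0.145 without mouse W2.

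The remaining called genes of the list had fitted values on both sides of W5. Fkbp4, which encodes FKBP52, the co-chaperone that opposes FKBP51 at the receptor, had -0.31, -0.09, 0.04 and -0.30 (adjusted p = 0.0132), and lost its call without mouse W1 and without mouse W4, with an adjusted p of up to 0.157. Its W3 value had an SE of 0.07 and was not told apart from W5, while Fkbp5 in W3 lay at 0.21 ± 0.07. In W2, Fkbp4 also lay near W5. Txnip, the thioredoxin inhibitor, had -0.25, 0.06, -0.34 and -0.11 (adjusted p = 0.0397). Of 27 settings, 18 ended its call. These were the fits without dye term and with array number as a block, and those leaving out any array other than W2.3, W3.3 and W4.4, or mouse W1, W3 or W4, with an adjusted p of up to 0.314. The count over the list was 3 without mouse W1 and 4 to 7 when 1 array was left out.

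Of the 24 tested targets that were not called, a few with a known role are given. Mt1, whose gene is next to Mt2, lay on the negative side in all mice with -0.26, -0.15, -0.09 and -0.31 (adjusted p = 0.207). Metallothionein transcripts are alike in sequence, so the probes of Mt1 and Mt2 may share signal. Per1, a clock gene with a glucocorticoid response element, had -0.30, -0.05, -0.29 and -0.16 (adjusted p = 0.276). Dusp1, a MAP kinase phosphatase, had -0.16, 0.12, -0.0084 and 0.14 (adjusted p = 0.240), and Klf9, a Krüppel-like factor, -0.31, 0.17, 0.08 and 0.03 (adjusted p = 0.121). Sgk1 and Tsc22d3 were not tested here. Glul, glutamine synthetase, was not called on the probe used (adjusted p = 0.0926) but its other probe, with -0.10, -0.79, -0.61 and -0.47, passed at 0.0276. Over the 29 genes the median of the 4-mouse mean was -0.04, against 0.0021 over all named genes, and 19 of 29 lay on the negative side. In the test among W1 to W4 none of the 29 passed by limma, where 0.824% of named genes and 0.7% of all probes did. At an unadjusted p under 0.05 there were 10 of the 29, against 11.4% of named genes.

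**Figure D2:**
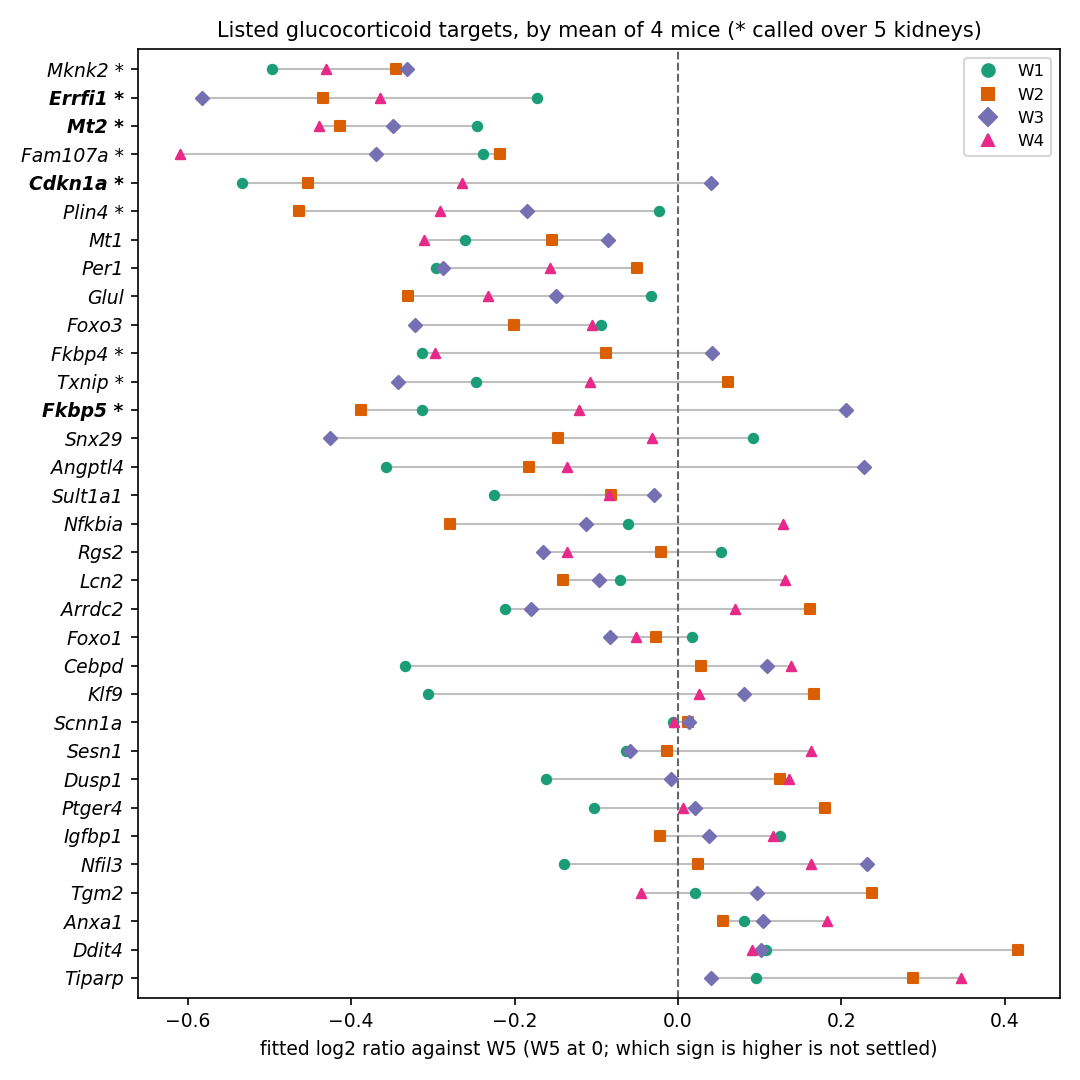
Fitted log2 ratios against W5 (horizontal axis) in W1 to W4 for the 33 listed and tested glucocorticoid targets, ordered by the mean of the 4 mice, with the 4 members in bold and called genes starred. All 9 starred genes have a mean on the negative side, but 4 of them are the members, which were chosen by this call. W3 of Fkbp5 and Cdkn1a lies to the right of their other mice.

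The mean of the receptor gene lay on the other side of W5 from the means of all 4 members. Nr3c1, the glucocorticoid receptor, had 0.34, 0.38, 0.17 and 0.47 in W1 to W4, on the positive side in all mice (limma adjusted p = 0.000788). Its SE was 0.08, and 0.09 in W2, which had 3 arrays with a value. Hsd11b1, which regenerates active hormone, also lay there, with 0.46, 0.71, 0.19 and 0.28 (adjusted p = 9.54e-05). In both genes the fitted value of W3 was the nearest to W5. Neither gene passed in the test among W1 to W4 (limma adjusted p = 0.505 for Nr3c1 and 0.178 for Hsd11b1), so that place of W3 is not settled. Both passed the 5-kidney test in every alternative setting in which they were tested. Such a call with all mice on the positive side was made for 1.25% of named genes. Hsd11b2, which inactivates the hormone in the distal nephron and was not called, had -0.05, 0.11, 0.04 and -0.32 (adjusted p = 0.124). The mineralocorticoid receptor gene Nr3c2 was not tested here.

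Of 18 tested genes of receptor and ligand handling, 5 passed (27.8%, against 4.2% of all named genes). Besides Nr3c1, Hsd11b1 and Fkbp4 these were a chaperone and a coactivator. Fkbp4 is also counted among the called glucocorticoid targets above. Ptges3, the Hsp90 co-chaperone p23, had 0.06, -0.48, -0.17 and 0.10 (adjusted p = 0.0290). Its call was lost without any 1 of the arrays of W2, without mouse W2 and with arrays scaled to a common spread, with an adjusted p of up to 0.587. Crebbp, the coactivator CBP, had -0.14, -0.31, -0.31 and 0.04 (adjusted p = 0.0290). It lost its call without array W1.1, W1.4, W2.1, W2.3, W2.4, W3.1 or W3.4 and without mouse W1, W2 or W3, with an adjusted p of up to 0.176. The count of the list was 3 without array W2.1, W2.3 or W2.4 and without mouse W1 or W2.

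**Figure D3:**
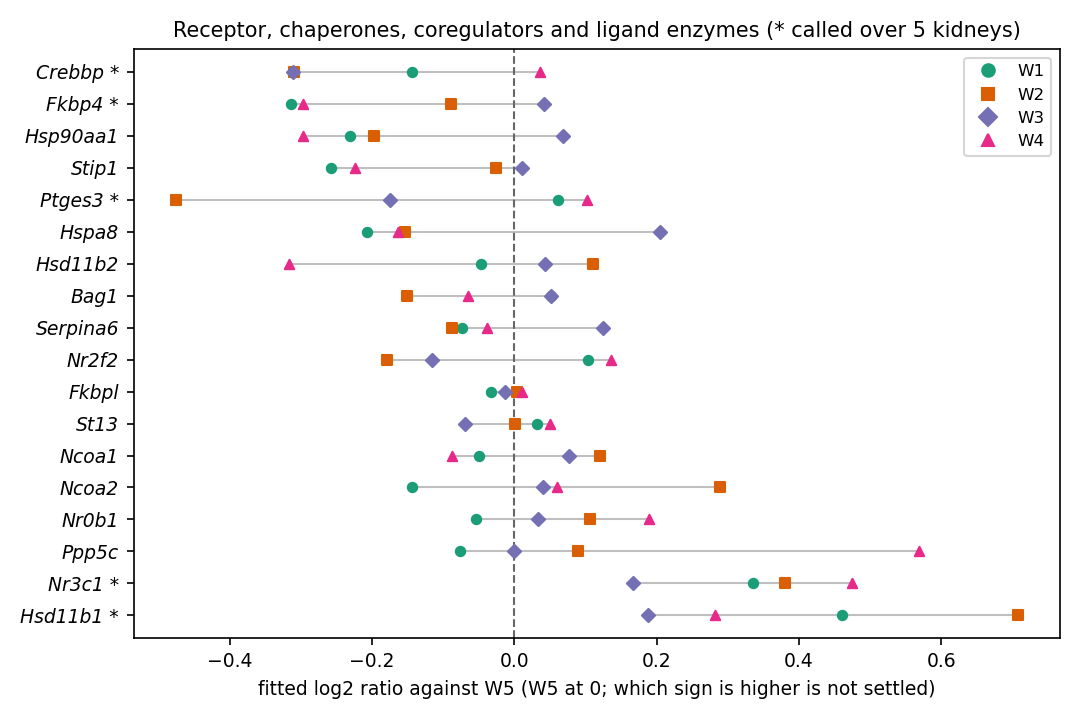
Fitted log2 ratios against W5 (horizontal axis) in W1 to W4 for 18 genes of the receptor, its chaperones, its coregulators and the enzymes of its ligand, with called genes starred. Nr3c1 and Hsd11b1 have all 4 mice on the positive side, between 0.17 and 0.71.

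Each member also belongs to a pathway or gene family that is not defined by glucocorticoid, and these were set beside it. Over all named genes 4.2% passed. Of 10 other p53 targets tested, 1 passed, Ccng1 (cyclin G1), with 0.26, 0.01, 0.34 and 0.11 in W1 to W4 (limma adjusted p = 0.0225). Its other probes were not called (adjusted p = 0.174 and 0.279), and its call was lost without array W1.1, W1.3, W3.1, W3.2 or W3.4 and without mouse W1 or W3, with an adjusted p of up to 0.273. Mdm2, the p53 ubiquitin ligase, had -0.0031, -0.06, 0.09 and -0.0062 and was not called (adjusted p = 0.900, and 0.180 for its other probe). Of 11 other cell cycle inhibitors and partners, cyclin D1 (Ccnd1) passed, with -0.18, 0.08, -0.18 and -0.45 (adjusted p = 0.0191). It lost its call without the dye term, without array W4.1, W4.2 or W4.3 and without mouse W1, W3 or W4, with an adjusted p of up to 0.228. The inhibitor genes Cdkn2c and Cdkn2d were not called.

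Around Errfi1, 1 of 8 other tested genes of EGF receptor signalling passed (12.5%, against 4.2% of all named genes). It was the receptor gene Erbb3, with 0.01, 0.57, 0.06 and 0.19 (limma adjusted p = 0.00141). This call rested on W2, since without mouse W2 its adjusted p was 0.425. Egfr itself had -0.09, 0.19, -0.13 and -0.10 and was not called on either probe (adjusted p = 0.406 and 0.725). Around Mt2, none of 7 other metallothionein and zinc transport genes passed by limma. Of the 7, 3 had an unadjusted p under 0.05, Mt1 and Mt3 among them, against 18.2% of all named genes. The metal sensor Mtf1 was among those not called. Around Fkbp5, 1 of 6 other tested genes of the FK506 binding protein family passed (16.7%, against 4.2% of all named genes). It was Fkbp4, the same call as among the glucocorticoid targets and the receptor genes above.

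Fkbp5 and Cdkn1a both lie on chromosome 17, with 15 protein-coding genes of the gene table between them, while Errfi1 lies on chromosome 4 and Mt2 on chromosome 8. Of the 15, 6 were tested and none passed by limma, with 1 at an unadjusted p under 0.05 (18.2% of all named genes) and adjusted p between 0.118 for Srpk1 and 0.911 for Srsf3. The 3 nearest tested genes on the far side of Cdkn1a, Rab44, Cpne5 and Ppil1, did not pass either. On the far side of Fkbp5, Zfp523 and Fance did not pass, but Ppard did, a nuclear receptor gene for fatty acids. It had -0.0032, -0.10, 0.78 and 0.30 in W1 to W4 (adjusted p = 0.000435), and passed among W1 to W4 as well (adjusted p = 0.00541). W3 lay 0.71 from the mean of the other 3 mice in Ppard, 0.48 in Fkbp5 and 0.46 in Cdkn1a, each time toward the positive side. Without mouse W3 the adjusted p of Ppard was 0.247. On the whole of chromosome 17, 20 of 406 tested genes passed (4.93%). None of the 3 nearest tested genes on either side of Errfi1 or of Mt2 passed by limma, 12 genes in all. At an unadjusted p under 0.05 there were 3 of the 12, against 18.2% of all named genes, and Mt1 and Mt3 were again among them.

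**Figure D4:**
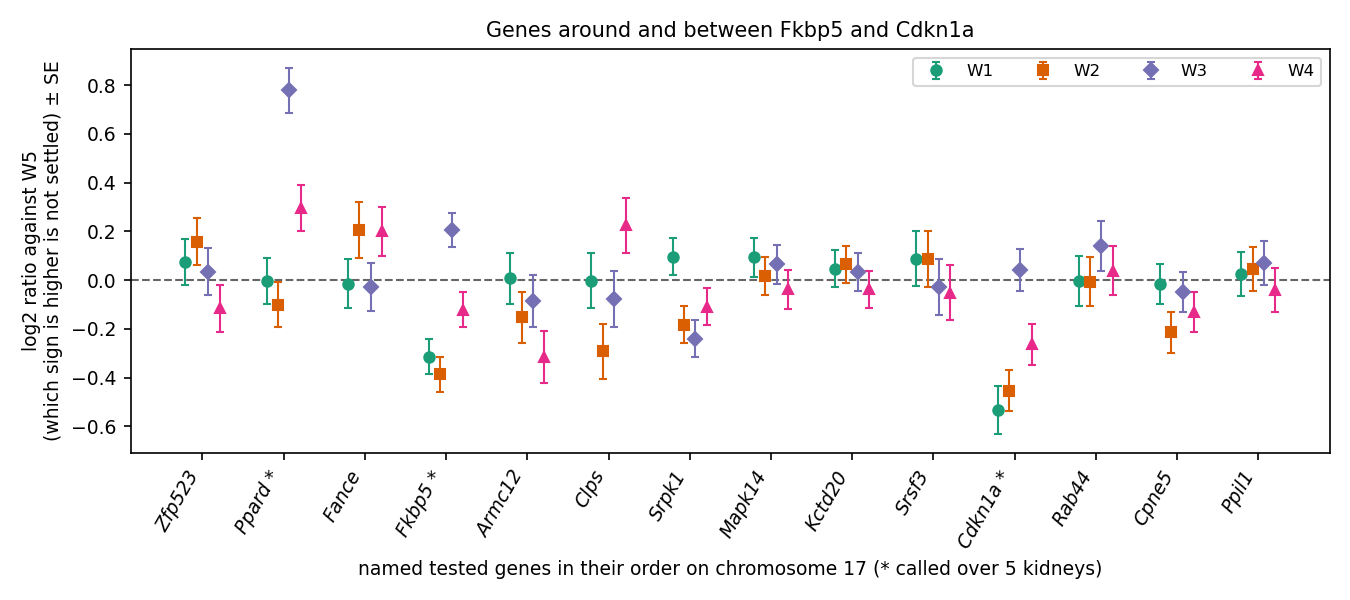
Fitted log2 ratios against W5 ± SE (vertical axis) in W1 to W4 for 14 tested genes in their order on chromosome 17 (horizontal axis, not to scale), with called genes starred. Ppard, Fkbp5 and Cdkn1a are starred and have W3 above the other mice, while the 6 genes between Fkbp5 and Cdkn1a lie within 0.32 of W5.

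Markers of other cell types moved with the kidneys too. For the counts of calls below, 4.2% of all named genes were called, and 3923 of 8005 had a negative mean. The means of all 7 tested adipose markers lay on the negative side, where the means of the members lay. Of these 7, 5 were called. Medians over W1 to W4 were -0.20, -0.34, -0.35 and -0.31. Of the called markers, 3 had all 4 mice on the negative side. These were Fabp4 with -0.47, -0.67, -0.64 and -0.31, Cidec with -0.37, -0.36, -0.68 and -0.85 and Car3 with -0.08, -0.34, -0.35 and -0.53. The other 2 had mice on both sides, Scd1 with -0.75, -0.13, -0.62 and 0.12 and Lpl with -0.03, -0.49, 0.10 and -0.15. Scd1 also passed among W1 to W4 (limma adjusted p = 0.00077). Of the 5, Lpl on the probe used lost its call without the dye term, without array W2.2, W2.3 or W2.4 and without mouse W2. Its adjusted p reached up to 0.634. The other probes of Lpl passed in the main fit, at a limma adjusted p of 0.00309 and 0.000717. Endothelium and stroma markers lay on the other side, with 6 of 11 called and medians of 0.11, 0.29, 0.04 and 0.27. Without mouse W2 the calls of Col3a1, Dcn, Egfl7 and Emcn were lost, with adjusted p of up to 0.237, 0.180, 0.200 and 0.0503 over the settings, and those of Esm1 and Mgp were kept. Col3a1 and Dcn also lost theirs without the dye term and without array W2.2 or W2.4, among others. Col1a2 was not called on the probe used (limma adjusted p = 0.210), while its other probes passed at 0.00569 and 0.0268. Of 8 blood and immune markers S100a8 was called, and medians lay between -0.08 and -0.02. Lyz2, a macrophage lysozyme, was not called on the probe used (adjusted p = 0.127), while its other probe, with 0.09, 0.32, 0.48 and -0.0068, passed at 0.0117. Of 6 adrenal markers none was called by limma, with 1 at an unadjusted p under 0.05, near the 18.2% of all named genes. Star, which imports cholesterol for steroid synthesis, had -0.12, 0.10, -0.18 and 0.0090. Defining markers such as Cyp11b1 were not tested here. The part of these cell types in the values of the members was not tested.

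**Figure D5:**
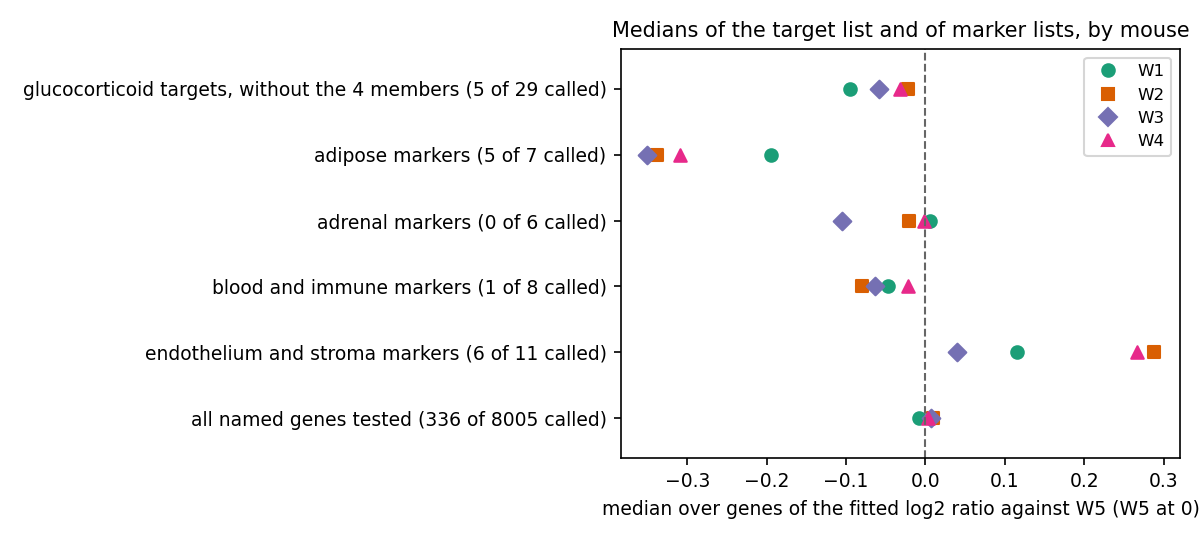
Median over genes of the fitted log2 ratio against W5 (horizontal axis) in W1 to W4 for the glucocorticoid targets other than the members, 4 marker lists and all named genes tested, with the number called of the number tested. Adipose medians lie between -0.35 and -0.20 and endothelium and stroma medians between 0.04 and 0.29, while those of all named genes lie within 0.01 of 0.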

How the data were processed

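Right kidneys of 5 mice were compared on 16 two-colour arrays. The deposited values are log2 ratios of GenePix intensities, from which the authors had subtracted background and which they scaled so that the median ratio was 1, per the labels. That the logs are log2 was read from the data. On each array 1.56% to 5.01% of values matched such a ratio of small whole numbers (up to 12, tolerance 2e-06, the array's most frequent value taken as a ratio of 1), against at most 0.126% for other bases. The channels' dyes, the numerator and the filter behind empty cells were not given in the sources used here. Over probes, deposited ratios of 2 mice on arrays of like orientation correlated at 0.0150 to 0.386, and those of the same mouse in opposite orientation at -0.169 to 0.0844, where a shared signal gives a negative value.

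Probes with values on at least 3 arrays of every mouse were fitted with limma 3.58.1 in R 4.3.3 (lmFit, eBayes) with 4 mouse coefficients and a dye term. A moderated F test asked whether all 4 are 0 (the 5-kidney test), and another whether W1 to W4 differ, with Benjamini-Hochberg adjustment over all 15715 probes and a threshold of 0.05. The fit was checked on simulated data. Names came from the platform annotation: 11723 probes had 1 symbol, 806 several and 7676 are unnamed here; 11590 were matched to GRCm38.p6, used for names and gene order. One probe per gene was used, the one measured on most arrays. Named are the members, the called genes of the lists and those whose role bears on a member, the 3 genes of highest and of lowest cosine, and the 3 nearest tested genes on either side. S100a8 and Ppard entered by these rules. The members and lists were chosen with earlier results of these data known. Promoter windows are RefSeq sequence of GRCm38.p6.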

Additional observations from a re-analysis of the deposited data

Results flagged for a closer look

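Of the 15 sets of 4 arrays formed by a member and a mouse, none held an array that stood far from the other 3. In Fkbp5 the effects of 2 pairs of mice against W5 had opposite signs on every array. W3 lay on the positive side on all 4 arrays and W1 on the negative side on all 4, a difference of 0.52 (W3 minus W1). W3 and W2 were opposed in the same way, with a difference of 0.59 (W3 minus W2). These differences were not tested, since Fkbp5 was chosen from these arrays.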

How the results depend on the processing

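The 27 alternative settings changed the dye term, the scale, centring and weights of arrays, the filter on missing values, or left out an array or a mouse. Of 519 member values under them, 517 moved by less than the SD of the arrays of a mouse and none changed side; the exceptions were Errfi1 in W1 without array W1.1 (-0.24) and the range of Fkbp5 without mouse W3 (0.39). By over 1.5 times moved Mt2 in W1 without array W1.3 (-0.16), Mt2 in W2 without W2.2 (-0.27) and Cdkn1a in W3 without W3.1 (0.0017), besides that range. The count of the 5-kidney test, 629, was 403 without the dye term, 378 without mouse W1 and 335 without mouse W2, and 457 to 671 with 1 array left out. That of the test among W1 to W4, 110, was 62 without the dye term, 240 with array weights, 72 to 125 with 1 array left out (72 without W3.2), and 54, 53, 49 and 70 without mouse W1, W2, W3 and W4. The 5 called glucocorticoid targets besides the members were 3 without mouse W1 and 4 to 7 with 1 array left out; among W1 to W4 the count was 0 in every setting. Array numbers did not pair arrays of different mice (residual correlations of -0.253 to 0.135, 1 of 24 over 0.1). With array number as a replicate block, the 5-kidney count was 591, that among W1 to W4 97 and that of the targets 4. No probe intensities were used, so signal over background was not checked, and no finding here extends beyond 5 kidneys.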
